A study of Mus musculus with 63 samples.

Results

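Nuclear receptors are transcription factors that bind small fat-soluble molecules and switch genes of metabolism on or off. In the gut epithelium they read dietary fatty acids (the PPARs), oxysterols (LXR alpha), drugs and bile acids (PXR and CAR), vitamin D (VDR) and glucocorticoids (the glucocorticoid receptor). Most of them bind DNA together with a retinoid X receptor, whereas LRH-1 binds as a monomer and the glucocorticoid receptor as a homodimer. Their coactivators reach RNA polymerase II through the Mediator complex, whose kinase is CDK8 or its paralog CDK19. Transcripts of 10 such receptors are described here, chosen by gene name from the 54752 genes of the count tables: Ppara, Ppard, Pparg, Nr1i2 (PXR), Nr1i3 (CAR), Nr1h3 (LXR alpha), Vdr, Rxra, Nr5a2 (LRH-1) and Nr3c1 (the glucocorticoid receptor). Each was found in every table and passed the filter on low counts in every fit, so all 10 were tested in each comparison.

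The study sequenced poly-A RNA from mouse small intestinal organoids and from freshly isolated intestinal epithelial cells (IECs), and 57 libraries in 19 groups of 3 were used. All animals were on a C57BL/6 background, and Cre was the tamoxifen-inducible CreERT2 driven by the Villin promoter, which is active along the intestinal epithelium. Organoids of 5 genotypes were collected 7 days after 100 nM 4-hydroxytamoxifen (4-OHT), which the controls received too: VillinCreERT2, wild-type C57BL/6, CDK8iIEC-KO (VillinCreERT2 with Cdk8 fl/fl), Cdk8 fl/fl/Cdk19-/- without Cre, and CDK8iIEC-KO/Cdk19-/- (VillinCreERT2 with Cdk8 fl/fl and Cdk19-/-). A time course compared 4-OHT with ethanol vehicle (EtOH) in VillinCreERT2/Cdk8 fl/fl/Cdk19-/- organoids at days 3, 5, 7 and 10. The same genotype was given 4-OHT or EtOH and collected at day 10 in Wnt3-conditioned medium (Wnt3-CM). A further line carried the kinase-dead D173A allele of Cdk19 over the null allele (Cdk19 D173A/-), with VillinCreERT2 and Cdk8 fl/fl, and was collected 7 days after 4-OHT or EtOH. IECs came from VillinCreERT2 and CDK8iIEC-KO/Cdk19-/- mice 14 days after the last tamoxifen injection (80 mg/kg). In all 3 EtOH comparisons the controls therefore already lacked wild-type Cdk19, and Cdk8 was the only gene newly removed. No line without floxed Cdk8 was given both 4-OHT and EtOH in the libraries used. Effects of 4-OHT itself and of active Cre thus cannot be told apart from loss of Cdk8 in these comparisons. The 3 organoid libraries of a group carried a common line number, which for the double-loss genotype differed between the day 7 table and the time course, and the labels do not say that they came from separate cultures or mice, so p-values measure the spread between libraries, which may be technical.

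Library totals ran from 15485959 to 32909565 counts (median 19374952). The parts of Cdk8 and Cdk19 that the alleles remove are not given in the sources used here, and whole-gene counts do not check the labels: Cdk8 ranged from 71.9 to 80.8 CPM (counts per 1000000 counts of the library, scaled by TMM) in VillinCreERT2, 78.0 to 83.1 in CDK8iIEC-KO and 65.1 to 67.2 in CDK8iIEC-KO/Cdk19-/- organoids, and overlapped between knockout and control IECs and between 4-OHT and EtOH at days 3, 5 and 10. Cdk19 ranged from 27.6 to 27.8 CPM in CDK8iIEC-KO/Cdk19-/- and 27.2 to 29.1 in VillinCreERT2 organoids. Organoids matched their label by epithelial genes, with summed immune markers of at most 4.85 CPM, but 1 EtOH day 7 library held 43.2 CPM of mesenchymal markers, against 5.04 and 5.43 in the others of its group. The IEC libraries also held immune transcripts (1664 to 3054 CPM over 9 genes), and mesenchymal markers differed between them (7.08, 41.7 and 797 CPM over 8 genes in VillinCreERT2, 399, 529 and 815 in CDK8iIEC-KO/Cdk19-/-). Adipocyte markers, which matter for Pparg, summed to at most 0.36 CPM in any library.

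The receptor genes lie apart in the genome (GRCm38): Ppara at chr15:85734983-85802819 (+ strand), Ppard at chr17:28232700-28301474 (+ strand), Pparg at chr6:115360951-115490399 (+ strand), Nr1i2 at chr16:38248323-38294824 (- strand), Nr1i3 at chr1:171213970-171220701 (+ strand), Nr1h3 at chr2:91184061-91202834 (- strand), Vdr at chr15:97854425-97910630 (- strand), Rxra at chr2:27676440-27762957 (+ strand) and Nr5a2 at chr1:136842571-136960448 (- strand). All 10 are protein-coding, and counts were summed over exons. Nr1i3 is the uncertain gene of the set: 3304 of its 4414 exon bases (74.9%) are also exons of Tomm40l, a mitochondrial import gene on the opposite strand. Whether the counting used strand is not given in the sources used here, so reads of the shared bases cannot be told apart, and Tomm40l is given beside each called change of Nr1i3.

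Several of these receptors bind repeats of a 6-base core, and their own promoters were searched for it because 7 of the 10 transcripts fell together soon after Cdk8 was removed. RefSeq (GRCm38.p6) gave 14 start sites for 9 receptors. The 250 bases before each start were searched on both strands for the core AGGTCA and for its variants GGGTCA (other first letter), AGTTCA (another letter further in) and GGTTCA (both). None of the cores contains another. At least 1 of them was present at 5 of the 14 starts (35.7%) and at 12694 of all 32851 mouse promoters (38.6%), a share close to that of the receptors. The windows of Ppara, Ppard, Nr1i2 and Nr1h3 held none and that of Vdr held 1. Those of Pparg, which was higher at day 3, held 1, 2 and none. Singly, AGGTCA was in 14% of all promoters, its variant GGGTCA in 11.6%, the variant AGTTCA in 11.8% and the variant GGTTCA in 8.85%. Among the receptors called lower at day 3, 5 windows of 3 genes overlapped no annotated exon, and 1 is shown for each gene, for Rxra and Nr5a2 the one with cores; the other Rxra and Nr5a2 windows held none. They are written 5′ to 3′ on the gene's strand with the cores, or their reverse complements, in capitals: Nr1i3 at chr1:171213720-171213969 (+ strand) held none, Nr5a2 at chr1:136960449-136960698 (- strand) held 2, and the inner of 2 Rxra starts, inside the gene, at chr2:27709042-27709291 (+ strand) held 3.
Nr1i3: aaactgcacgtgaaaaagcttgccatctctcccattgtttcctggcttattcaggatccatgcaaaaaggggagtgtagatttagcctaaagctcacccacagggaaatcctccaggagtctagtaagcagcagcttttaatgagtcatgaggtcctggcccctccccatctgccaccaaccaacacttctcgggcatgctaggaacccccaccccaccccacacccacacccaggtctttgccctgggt
Nr5a2: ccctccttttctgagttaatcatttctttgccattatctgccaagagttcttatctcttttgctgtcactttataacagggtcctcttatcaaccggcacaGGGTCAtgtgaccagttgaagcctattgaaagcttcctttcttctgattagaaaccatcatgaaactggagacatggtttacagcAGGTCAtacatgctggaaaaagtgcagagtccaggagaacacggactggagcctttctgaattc
Rxra: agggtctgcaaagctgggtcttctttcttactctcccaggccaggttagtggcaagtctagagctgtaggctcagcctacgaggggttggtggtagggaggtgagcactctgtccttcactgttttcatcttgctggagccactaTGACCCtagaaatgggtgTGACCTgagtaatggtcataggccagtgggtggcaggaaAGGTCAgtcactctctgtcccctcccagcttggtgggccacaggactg

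Vdr had the highest and Nr1i3 the lowest mean level per exon length in every control group, although the ranges of Vdr and Ppard overlapped in Wnt3-CM EtOH organoids and those of Ppara and Nr1i3 in C57BL/6, EtOH day 3 and Cdk19 D173A/- EtOH organoids. Levels between genes are compared here as CPM per kilobase of exon. The level of Nr1i3 is divided by its whole exon length, of which 74.9% is shared with Tomm40l, so its place in the order is uncertain. In VillinCreERT2 organoids the order was Vdr (84.9), Nr3c1 (37.3), Rxra (30.3), Nr1i2 (28.4), Nr1h3 (16.6), Pparg (15.3), Ppard (15.0), Nr5a2 (12.2), Ppara (10.3) and Nr1i3 (2.95), each the mean of 3 libraries. The ranges of Nr1h3 and Pparg overlapped, and so did those of Pparg and Ppard. In VillinCreERT2 IECs the same scale gave Vdr (125.7), Nr1i2 (55.3), Rxra (44.2), Ppard (42.7), Nr3c1 (24.1), Nr1h3 (22.9), Ppara (8.28), Pparg (7.50), Nr5a2 (6.95) and Nr1i3 (4.07). There the neighbours Rxra and Ppard, Nr3c1 and Nr1h3, Ppara and Pparg, and Pparg and Nr5a2 overlapped. The EtOH organoids of the time course at day 7 placed Vdr (99.5), Rxra (37.3), Nr1i2 (27.9), Ppard (24.7), Nr1h3 (22.3), Nr3c1 (20.2), Pparg (11.2), Nr5a2 (7.86), Ppara (7.14) and Nr1i3 (3.87) in that order, with overlap between Ppard and Nr1h3 and between Nr1h3 and Nr3c1. Nr3c1 and Ppard thus changed places between these organoid groups. They also did so within the time-course line, where Nr3c1 (23.0) was above Ppard (12.7) in EtOH at day 10.

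**Figure D1:**
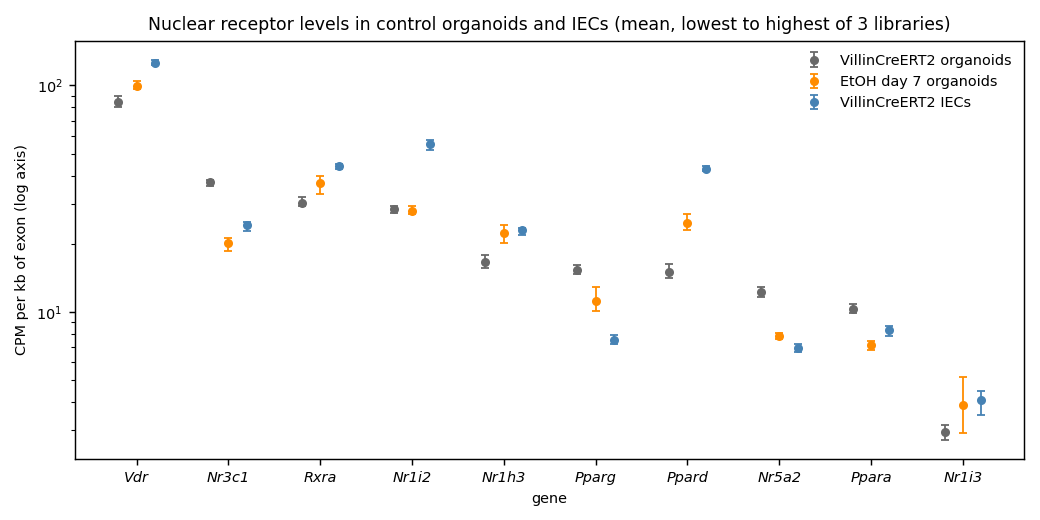
Level of each receptor transcript (CPM per kilobase of exon, log axis) in VillinCreERT2 organoids, EtOH organoids at day 7 and VillinCreERT2 IECs; points are means and bars run from the lowest to the highest of 3 libraries. Vdr is highest in all 3 groups (84.9, 99.5 and 125.7) and Nr1i3 lowest (2.95, 3.87 and 4.07). The place of Nr1i3 is uncertain, since 74.9% of its exon bases are shared with Tomm40l.

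The time course asked how the transcripts moved after 4-OHT, given to remove Cdk8, in cells that already lacked Cdk19. At day 3 most of the receptors fell: 7 of 10 were lower in 4-OHT than in EtOH at an adjusted p below 0.05 in edgeR's quasi-likelihood test with a fold above 1.5 (the rule for a call throughout), against 5.95% of 15447 genes called lower and 12.4% called in either direction. All 10 passed the adjusted p alone, 9 of them downward, against 34.4% of all genes. The libraries of both treatments did not overlap for any of the 10, which held for 51.2% of all genes. The median log2 fold change of the 10 was -0.71 and that of all genes -0.02. The largest falls were those of Nr1i3, Ppara and Nr1h3.

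Ppara, which drives fatty acid oxidation, measured 18.3, 19.8 and 20.8 CPM in EtOH and 7.41, 7.68 and 7.81 CPM in 4-OHT at day 3. Every 4-OHT library was below every EtOH library, and the fitted level was 0.388 times that in EtOH (log2 fold change -1.36 ± 0.15 (SE), adjusted p = 4.61e-08). Nr1h3, which senses oxysterols and promotes sterol export, had 36.4, 38.8 and 39.5 CPM in EtOH and 14.6, 17.6 and 18.4 CPM in 4-OHT. It was at 0.442 times the EtOH level (log2 fold change -1.18 ± 0.11 (SE), adjusted p = 4.00e-09). Nr1i3, the constitutive androstane receptor, which induces drug-clearing enzymes, had 20.3, 20.6 and 22.3 CPM in EtOH and 5.61, 7.17 and 7.20 CPM in 4-OHT. Its fold was 0.317 (log2 fold change -1.66 ± 0.21 (SE), adjusted p = 1.84e-06), the largest among the 10, while Tomm40l on the other strand had -0.08 (adjusted p = 0.64) on the log2 scale. Nr1i2, the pregnane X receptor, which shares many targets with CAR, went from 79.4, 79.5 and 83.4 to 55.4, 55.7 and 57.9 CPM without overlap, and its log2 fold change of -0.52 ± 0.06 (SE), adjusted p = 8.71e-08, did not reach the fold needed for a call.

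The vitamin D receptor Vdr, which controls calcium uptake, read 638, 654 and 698 CPM in EtOH and 353, 369 and 381 CPM in 4-OHT (log2 fold change -0.85 ± 0.11 (SE), adjusted p = 2.21e-06). Rxra, the shared partner of PPARs, LXR, PXR, CAR and VDR, read 174, 193 and 208 and 108, 110.0 and 119.5 CPM (log2 fold change -0.77 ± 0.09 (SE), adjusted p = 1.41e-07). Both were lower in each 4-OHT library. Nr5a2, which in the gut supports crypt renewal and local steroid synthesis, read 48.1, 48.3 and 53.8 CPM in EtOH and 31.6, 33.5 and 34.2 CPM in 4-OHT (log2 fold change -0.60 ± 0.07 (SE), adjusted p = 2.11e-08). Its fold stood at the limit: without EtOH replicate 1 the log2 value was -0.54, without 4-OHT replicate 1 it was -0.57, fitted on the 2 groups of day 3 alone it was -0.57, and in none of these was it called, which leaves 6 receptors called. Nr3c1, a gene of chromosome 18 that mediates the response to cortisol-like steroids, read 143, 157 and 158 CPM in EtOH and 91.2, 97.1 and 105 CPM in 4-OHT (log2 fold change -0.64 ± 0.08 (SE), adjusted p = 6.44e-07). The fall of these 4 was smaller than that of Ppara, Nr1h3 and Nr1i3, and equally free of overlap.

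Of the other PPARs, Ppard fell by less than the fold needed for a call and Pparg was higher. Ppard, the broadly expressed PPAR, had 198, 207 and 224 CPM in EtOH and 165, 173.03 and 182 CPM in 4-OHT (log2 fold change -0.27 ± 0.08 (SE), adjusted p = 0.00562). Pparg, best known from fat cells, had 30.4, 31.4 and 31.9 CPM in EtOH and 36.0, 37.4 and 39.3 CPM in 4-OHT (log2 fold change 0.27 ± 0.10 (SE), adjusted p = 0.0482). Pparg was the only member with a positive value at day 3. Enterocyte markers were also lower in the 4-OHT libraries at day 3, summing to 3381 to 3949 CPM against 7231 to 7734 CPM over 12 genes, with 8 of 12 called lower, while proliferation markers summed to 782 to 832 against 652 to 719 CPM. Stem cell markers summed to 2264 to 2339 against 1865 to 1882 CPM and the ileal markers Fabp6 and Slc10a2 to 30.6 to 33.5 against 9.13 to 10.5 CPM. The part of these markers in the receptors' fall was not tested. In bulk RNA, fewer cells of a type and less RNA per cell cannot be told apart.

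By day 5 no receptor passed the rule for a call, although Rxra and Ppard were still lower at the adjusted p alone. No receptor was called at day 5 by edgeR (background 13.2% of genes) or by DESeq2, 4 passed the adjusted p alone (background 38.3%) and 5 the unadjusted p (background 46.3%). Ppara had 20.1, 26.4 and 31.2 CPM in EtOH and 25.9, 26.0 and 28.5 CPM in 4-OHT, which overlapped (log2 fold change 0.05 ± 0.13 (SE), adjusted p = 0.796). Nr1i2 now had 71.8, 73.9 and 77.4 CPM in EtOH and 90.4, 90.6 and 99.6 CPM in 4-OHT (log2 fold change 0.33 ± 0.06 (SE), adjusted p = 9.26e-05), the opposite order to day 3. Ppard, Pparg and Rxra, without overlap between the treatments, had log2 fold changes of -0.31 (adjusted p = 0.00158), -0.32 (adjusted p = 0.0163) and -0.41 (adjusted p = 0.000604) in the same edgeR test. At day 5 Paneth cell markers summed to 2520.3 to 2854 CPM in 4-OHT and 4862 to 6051 in EtOH, stem cell markers to 1018 to 1167 and 1626 to 2275, and proliferation markers to 424 to 537 and 699 to 833 CPM. Mitochondrial genes held 4.59 to 5.57% of counts in 4-OHT and 2.51 to 2.80% in EtOH, and the part of these values was not tested. At day 7 no receptor was called by edgeR (background 18.3%) or by DESeq2, and all 10 log2 fold changes were positive, from 0.04 to 0.40. The adjusted p alone was passed by 4 (background 45.2%), and the unadjusted p by the same number (background 51.3%). These were Nr1i2 (69.1, 70.0 and 74.6 CPM in EtOH, 87.3, 95.6 and 98.3 in 4-OHT, log2 fold change 0.40), Nr5a2 (44.6, 46.7 and 47.8 and 58.1, 59.2 and 59.8, 0.35), Ppard (0.25) and Vdr (0.30). At day 7 enterocyte markers summed to 12493 to 14795 CPM in 4-OHT and 9641 to 11887 in EtOH, stem cell markers to 688 to 1060.0 and 1945 to 2335, proliferation markers to 376 to 551 and 735 to 867, and Paneth cell markers to 1827 to 2039.7 and 4879 to 5934 CPM, and their part was not tested.

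At day 10 Nr1h3 and Nr1i3 were called higher, and no receptor was called lower. Called higher were 2 of 10, against 8.86% of genes called higher and 15.8% called in all. Nr1h3 measured 41.5, 43.1 and 52.3 CPM in EtOH and 81.4, 89.1 and 91.0 CPM in 4-OHT, a fold of 1.91 (log2 fold change 0.93 ± 0.10 (SE), adjusted p = 2.80e-08). Nr1i3 measured 8.14, 9.13 and 10.3 CPM in EtOH and 16.6, 16.8 and 17.0 CPM in 4-OHT, a fold of 1.83 (log2 fold change 0.87 ± 0.20 (SE), adjusted p = 0.00138), where Tomm40l had 0.27 (adjusted p = 0.0482). Libraries of the treatments did not overlap for 3 receptors (background 53.2%), with 4-OHT above EtOH in each. Beside the called pair this was Nr1i2, with 52.6, 53.6 and 58.0 CPM in EtOH and 77.2, 77.5 and 78.8 CPM in 4-OHT (log2 fold change 0.51 ± 0.06 (SE), adjusted p = 9.44e-08). Pparg, with 29.1, 34.2 and 35.3 CPM in EtOH and 25.3, 26.5 and 29.3 CPM in 4-OHT, was lower at the adjusted p alone (log2 fold change -0.28 ± 0.11 (SE), adjusted p = 0.0324), and its libraries overlapped. Ppara, Ppard, Vdr, Rxra, Nr5a2 and Nr3c1 also overlapped between the treatments, with log2 fold changes of 0.28, 0.04, -0.07, -0.01, 0.01 and 0.09.

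**Figure D2:**
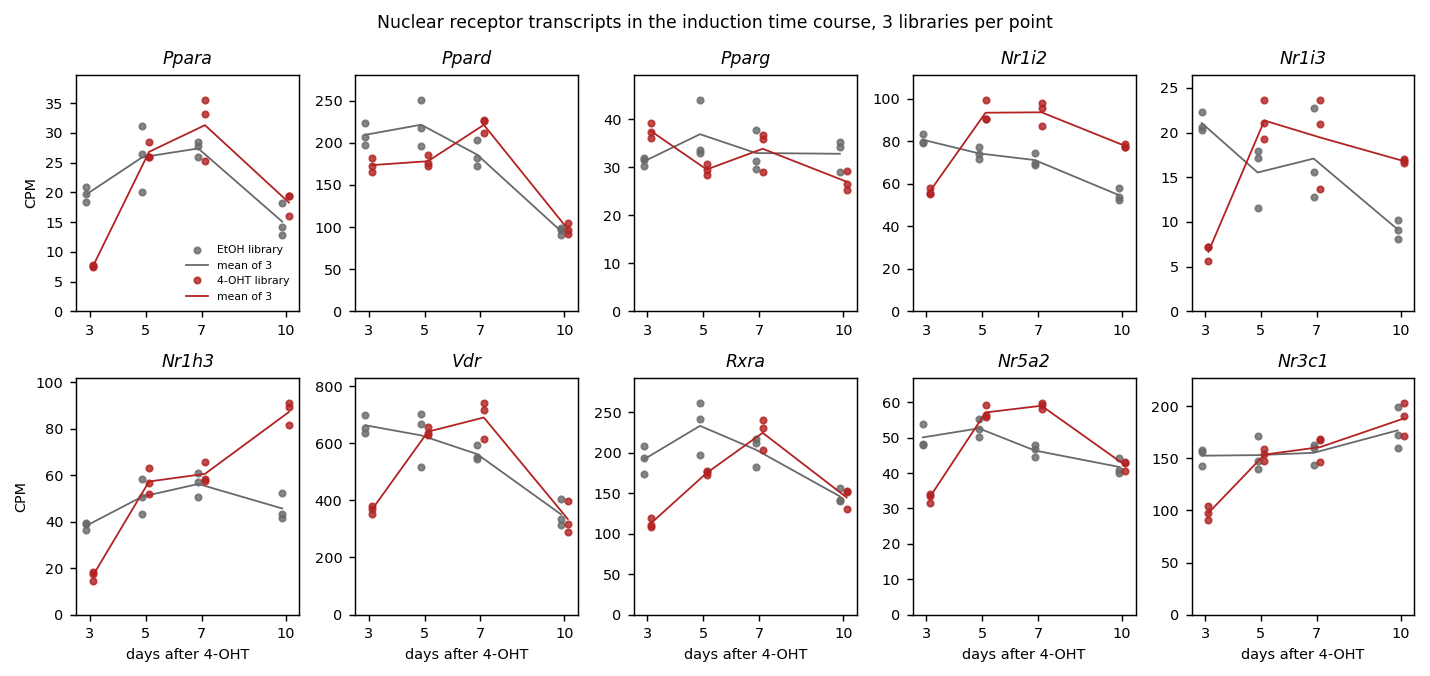
CPM of each receptor in the induction time course, by days after 4-OHT; points are libraries (grey EtOH, red 4-OHT) and lines join the means of 3. At day 3 the 4-OHT libraries lie below the EtOH libraries for 9 receptors and above them for Pparg, and at day 10 Nr1h3 in 4-OHT (81.4, 89.1 and 91.0 CPM) is above EtOH (41.5, 43.1 and 52.3 CPM).

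The change of response with time was tested directly as the 4-OHT effect at day 10 minus that at day 3. It was called positive for 8 of 10 receptors, against 13.9% of genes called positive and 26.3% called in all. The sizes, on the log2 scale, were 2.53 ± 0.29 (SE), adjusted p = 3.57e-07 for Nr1i3 (Tomm40l 0.35 (adjusted p = 0.0765)), 2.11 ± 0.15 (SE), adjusted p = 1.26e-11 for Nr1h3, and 1.64 ± 0.20 (SE), adjusted p = 2.62e-07 for Ppara. Nr1i2 followed with 1.03 ± 0.09 (SE), adjusted p = 9.95e-11, although it was called at neither day alone. Vdr (0.78), Rxra (0.76), Nr3c1 (0.74) and Nr5a2 (0.61) were smaller, and Nr5a2 was not called without EtOH day 3 replicate 1 (0.55), without 4-OHT day 3 replicate 1 (0.58) or without EtOH day 10 replicate 2 (0.58). Ppard had 0.31 (adjusted p = 0.0206). Pparg went the other way with -0.55 (adjusted p = 0.00342), and was called without EtOH day 10 replicate 1 (-0.63) or without 4-OHT day 10 replicate 2 (-0.61). The adjusted p-values are from edgeR.

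The EtOH libraries themselves changed over the same week, so the time points did not share a baseline. Between day 3 and day 10 Ppard fell from 198, 207 and 224 to 90.2, 96.4 and 98.8 CPM (log2 fold change -1.14 ± 0.08 (SE), adjusted p = 2.89e-13). Vdr fell from 638, 654 and 698 to 312, 336 and 405 CPM (-0.92 ± 0.11 (SE), adjusted p = 1.71e-07), and Nr1i3 from 20.3, 20.6 and 22.3 to 8.14, 9.13 and 10.3 CPM (-1.20 ± 0.20 (SE), adjusted p = 2.09e-05), where Tomm40l had 0.38 (adjusted p = 0.00407). These 3 were called lower of 10, against 22.4% of genes called lower. Nr1i2 had -0.56 (adjusted p = 4.32e-09) in edgeR's test and was called without EtOH day 3 replicate 1 (-0.59) or without EtOH day 10 replicate 1 (-0.60). Positive values were seen only for Nr1h3 (0.26), Nr3c1 (0.21) and Pparg (0.07), none of them called.

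Target genes of the receptors, from lists of textbook targets, were called lower at day 3 for several of the receptors. The shares of all genes to read these counts against are 5.95% called lower and 12.4% called in either direction, and in every comparison the median log2 fold change of all genes lay between -0.04 and 0.03. Of the PXR and CAR targets, 8 of 15 were called lower and none higher, with a median log2 value of -0.68. Ces2a, a carboxylesterase, went from 894, 988 and 1116 to 183, 184 and 204 CPM, and Cyp3a11, a drug-oxidizing cytochrome, from 58.5, 70.0 and 70.8 to 16.8, 17.5 and 18.1 CPM. Of the PPAR targets, 5 of 19 were lower and none higher (median -0.35). Among them Fabp1, a fatty acid binding protein that is also in the enterocyte list, went from 189, 194 and 201 to 46.9, 51.1 and 55.0 CPM. LXR targets were split: the sterol exporters Abcg5 (-1.84 on the log2 scale) and Abcg8 (-1.56) fell and the desaturase Scd1 (1.27) rose, of 10 tested. VDR targets had 2 of 4 lower, the calcium carrier S100g (-1.43) and the manganese exporter Slc30a10 (-0.68). Glucocorticoid receptor targets moved both ways, with Dusp1 (1.36) and Klf9 (0.97) higher and Tsc22d3 (-0.67) lower of 9. LRH-1 targets had no call among 3 tested.

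Some PPAR targets were called higher at days 7 and 10. Called higher and lower were 2 and 1 of 19 at day 5, 6 and 0 at day 7 and 5 and 0 at day 10, with medians of 0.03, 0.39 and 0.38, while 8.58%, 9% and 8.86% of all genes were called higher and 4.62%, 9.25% and 6.92% lower. Cd36, a fatty acid transporter, was called higher at each of these days, and at day 10 it had 4.82, 5.04 and 5.46 CPM in EtOH and 42.4, 42.7 and 43.5 CPM in 4-OHT (log2 fold change 3.07). PXR and CAR targets had 2 higher and 3 lower of 15 at day 7 and 4 higher and none lower at day 10, where the transferase Gsta1 (0.96) led. Abcg5 (0.66) and Abcg8 (0.75), which had fallen at day 3, were called higher at day 10. Ppargc1a, the coactivator PGC-1 alpha, fell at day 3 (-0.80) and rose at days 7 (1.24) and 10 (1.21). It was the only one of 15 coregulators called at days 3 and 7. Enterocyte markers had 6 of 12 called higher at day 10 (sums of 10506 to 12252 CPM in 4-OHT and 8516 to 10345 in EtOH), Paneth cell markers summed to 2135 to 2531 against 8138 to 8332 CPM and stem cell markers to 1593 to 1807 against 3091 to 3340.2 CPM, and their part in these changes was not tested.

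Other genes of the nuclear receptor superfamily were also tested at day 3. Of 24, 4 were called lower and 2 higher, with a median log2 value of -0.28 (background 5.95% lower and 12.4% in either direction). Hnf4g, an enterocyte receptor, went from 178, 195 and 206 to 71.7, 77.2 and 78.0 CPM (-1.35). Thrb (-0.85) was lower and Nr2e3 (1.11) higher. No test compared this list with the 10 receptors.

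The pattern most like that of each receptor over the 24 time-course libraries was found by Pearson's r of log2 CPM. Hnf4g (r = 0.986) and Sfxn1 (0.971) followed Ppara, and Rara, a retinoic acid receptor (0.986), and Gm7367 (0.982) followed Ppard. Nr1h3 was closest to Tmem86a (0.980) and 2010106E10Rik (0.974), Rxra to Dao (0.968) and B4galt5 (0.965), Vdr to Trak1 (0.962) and Plekha6 (0.957), and Nr5a2 to Fmo5 (0.959) and 1700025G04Rik (0.951). Nr3c1 was closest to Scamp1 (0.957) and Cebpg (0.956), Nr1i2 to Myo1a (0.952) and Stap2 (0.950), Nr1i3 to Adamtsl5 (0.935) and 0610005C13Rik (0.934), and Pparg to Eif4ebp1 (0.860) and Mif (0.842). Within the set the closest pairs were Ppara and Nr5a2 (0.897), Nr1i2 and Nr1i3 (0.887) and Ppara and Rxra (0.884), and the most opposed were Pparg and Nr3c1 (-0.628) and Pparg and Nr1h3 (-0.626). The libraries share treatments and days, so these values describe the same group differences once more.

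Loss of a single kinase in organoids at day 7 left every receptor below the fold needed for a call. In CDK8iIEC-KO against VillinCreERT2 organoids 0 of 10 were called (background 7.23%), and 5 passed the adjusted p alone in edgeR (background 30.3%). Nr1h3 had 39.2, 41.4 and 45.0 CPM in VillinCreERT2 and 28.2, 31.3 and 33.8 CPM in CDK8iIEC-KO (log2 fold change -0.43 ± 0.08 (SE), adjusted p = 0.000111). Nr3c1 had 278, 288 and 295 and 209, 218 and 239 CPM (-0.37 ± 0.07 (SE), adjusted p = 0.000109). Both were lower in every CDK8iIEC-KO library than in VillinCreERT2, but C57BL/6 organoids had 27.2, 31.1 and 32.6 CPM of Nr1h3 and 195, 196 and 229 CPM of Nr3c1. With the 2 control lines averaged, the values were -0.20 (adjusted p = 0.0242) and -0.13 (adjusted p = 0.0755) in edgeR. Vdr (-0.20) and Rxra (-0.16) had smaller negative values. Pparg was the positive one, with 43.6, 44.2 and 47.4 CPM in VillinCreERT2 and 53.3, 54.6 and 55.0 CPM in CDK8iIEC-KO (0.27 ± 0.06 (SE), adjusted p = 0.00143). In Cdk8 fl/fl/Cdk19-/- against C57BL/6 organoids, again 0 were called (background 5.25%) and 2 passed the adjusted p alone (background 15.5%), Nr5a2 (47.7, 50.0 and 54.8 to 59.5, 62.0 and 62.5 CPM, 0.27 (adjusted p = 0.00399)) and Ppara (19.8, 24.2 and 25.6 to 26.4, 28.6 and 30.5 CPM, 0.30 (adjusted p = 0.0323)). Against the mean of both control lines these 2 had 0.02 (adjusted p = 0.839) and -0.09 (adjusted p = 0.478) in edgeR. Nr1i3 in CDK8iIEC-KO organoids (10.8, 12.3 and 12.6 CPM) was close to VillinCreERT2 (-0.13 on the log2 scale), but was called lower against the mean of both control lines (-0.59, Tomm40l 0.20 (adjusted p = 0.111)). Enterocyte markers summed to 10719 to 12276 CPM in CDK8iIEC-KO and 15467 to 18503 CPM in VillinCreERT2 organoids, and goblet cell markers to 2266 to 2456 and 3185 to 3393 CPM, and their part in the receptor values was not tested. By unadjusted p below 0.05, 5 receptors in the first comparison and 4 in the second passed, against 40.1% and 27.8% of genes, and DESeq2 called none in either.

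Between double-loss and VillinCreERT2 organoids only Nr1i3 was called, and that call rested on the choice of control line. In CDK8iIEC-KO/Cdk19-/- against VillinCreERT2 organoids 1 of 10 was called higher (background 11.5%) and none lower (background 7.95%), and 7 passed the adjusted p alone (background 52.9%). Nr1i3 measured 12.1, 13.1 and 13.9 CPM in VillinCreERT2 and 19.6, 20.3 and 21.9 CPM in CDK8iIEC-KO/Cdk19-/- (log2 fold change 0.66 ± 0.09 (SE), adjusted p = 4.01e-07), and Tomm40l had 0.40 (adjusted p = 0.00459). The wild-type C57BL/6 organoids, however, held 23.2, 24.4 and 26.4 CPM of Nr1i3 and Cdk8 fl/fl/Cdk19-/- organoids 24.1, 24.9 and 24.9 CPM, both above the double-loss libraries. Against the mean of both control lines the log2 value was 0.20 (adjusted p = 0.024), which was not called, and Tomm40l had 0.22 (adjusted p = 0.0716). The largest other value was that of Pparg, with 43.6, 44.2 and 47.4 CPM in VillinCreERT2 and 29.8, 30.1 and 33.9 CPM after double loss (log2 fold change -0.53 ± 0.06 (SE), adjusted p = 1.65e-07), called without CDK8iIEC-KO/Cdk19-/- replicate 2 (-0.59). Ppara (-0.34), Ppard (-0.20), Nr3c1 (-0.20) and Rxra (-0.15) were negative and Nr1i2 (0.28) positive at the adjusted p alone. Against the mean of both control lines Ppara had 0.04 (adjusted p = 0.68) and Nr3c1 0.04 (adjusted p = 0.642), while Pparg (-0.45), Ppard (-0.28), Rxra (-0.13) and Nr1i2 (0.31) kept their sign in edgeR's test. Paneth cell markers summed to 854 to 890.0 CPM after double loss and 2778 to 2903 in VillinCreERT2, stem cell markers to 425 to 579 and 1177 to 1407, and goblet cell markers to 2071 to 2253 and 3185 to 3393 CPM, mitochondrial genes held 5.96 to 6.23% and 3.67 to 5.13% of counts, and their part was not tested.

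Pparg was called lower in the double loss than in the loss of CDK8 alone. It had 53.3, 54.6 and 55.0 CPM in CDK8iIEC-KO and 29.8, 30.1 and 33.9 CPM in CDK8iIEC-KO/Cdk19-/- organoids, a fold of 0.576 (log2 fold change -0.80 ± 0.06 (SE), adjusted p = 1.01e-10). Nr1i3 was higher in the same comparison (log2 fold change 0.79 ± 0.09 (SE), adjusted p = 2.01e-08, Tomm40l 0.02 (adjusted p = 0.876)), so 2 of 10 receptors were called, against 20.4% of genes. Enterocyte markers stood at 16743 to 17916 CPM in the double loss and 10719 to 12276 CPM in CDK8iIEC-KO, stem cell markers at 425 to 579 and 1179 to 1563 CPM, and Paneth cell markers at 854 to 890.0 and 2437 to 2640.0 CPM. Mitochondrial genes held 5.96 to 6.23% and 3.93 to 4.56% of counts, and the part of all these values was not tested. Against Cdk8 fl/fl/Cdk19-/- organoids 0 of 10 were called by edgeR (background 10.6%) or DESeq2, 6 had an unadjusted p below 0.05 (background 43.3%), and the largest value was that of Ppard, with 126, 139 and 144 and 94.1, 97.8 and 103 CPM (-0.47 ± 0.07 (SE), adjusted p = 2.29e-06). The double loss was also set against the sum of the single losses, each from its own control. It fell short of the sum for Pparg (-0.67 ± 0.09 (SE), adjusted p = 1.84e-06) and Ppara (-0.63 ± 0.13 (SE), adjusted p = 0.00035) and exceeded it for Nr1i3 (0.79 ± 0.12 (SE), adjusted p = 6.62e-06, Tomm40l 0.00 (adjusted p = 0.988)), so 3 of 10 were called, against 19.6% of genes. Calls for Nr1i3 and Ppara rested on the control line: with both control lines averaged, a setting added after seeing the data, Nr1i3 had 0.33 (adjusted p = 0.0209) with Tomm40l at -0.18 (adjusted p = 0.373), and Ppara -0.25 (adjusted p = 0.11) in edgeR, neither called, while Pparg was still called (-0.59 (adjusted p = 4.80e-06)). Ppara was not called without CDK8iIEC-KO/Cdk19-/- replicate 3 (-0.52), without C57BL/6 replicate 3 (-0.52) or without Cdk8 fl/fl/Cdk19-/- replicate 1 (-0.57). These comparisons share control libraries, so their values are not independent of each other.

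The 2 control lines were not alike either. C57BL/6 against VillinCreERT2 organoids gave calls for 2 of 10 receptors (background 26.4%), and 7 passed the adjusted p alone (background 61.3%). Called were Ppara, at 19.8, 24.2 and 25.6 CPM against 37.9, 39.1 and 41.6 (-0.77 ± 0.09 (SE), adjusted p = 7.65e-08), and Nr1i3 (0.92 ± 0.08 (SE), adjusted p = 7.68e-10, Tomm40l 0.36 (adjusted p = 0.00835)). Nr5a2 (-0.50), Nr3c1 (-0.47), Nr1h3 (-0.46), Ppard (0.16 (adjusted p = 0.0355)) and Pparg (-0.16 (adjusted p = 0.0314)) passed the adjusted p of edgeR without a call. Genotype and line cannot be told apart within these 5 groups, since each was 1 line. The ileal markers Fabp6 and Slc10a2 summed to 146 to 416 CPM in VillinCreERT2, 2.04 to 2.67 in C57BL/6 and 28.9 to 68.9 in CDK8iIEC-KO/Cdk19-/- organoids. Mitochondrial genes held 3.67 to 5.13% of counts in VillinCreERT2 and 6.42 to 6.57% in C57BL/6, and the part of these in the receptor values was not tested.

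**Figure D3:**
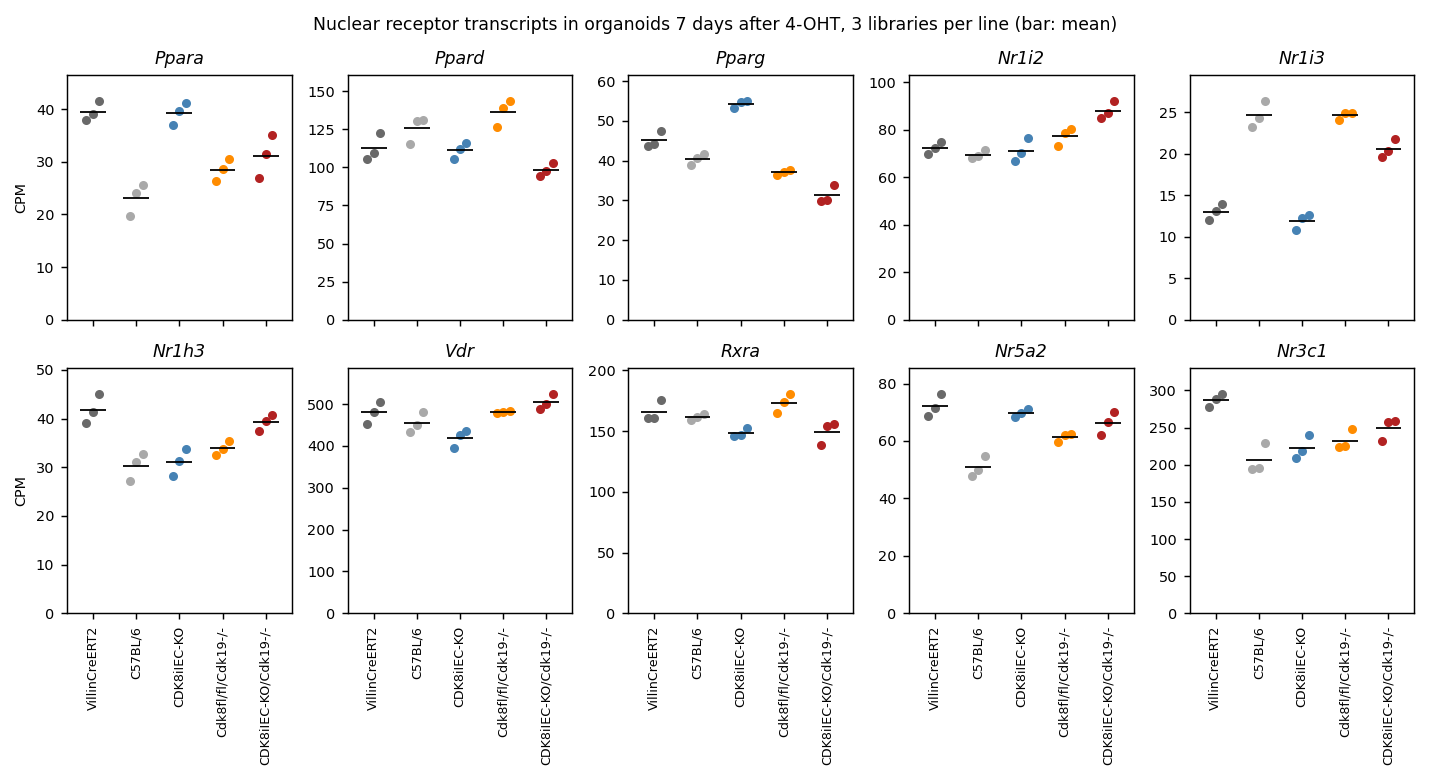
CPM of each receptor in the 5 organoid lines 7 days after 4-OHT; points are the 3 libraries of a line and bars their mean. Pparg is highest in CDK8iIEC-KO (53.3, 54.6 and 55.0 CPM) and lowest in CDK8iIEC-KO/Cdk19-/- (29.8, 30.1 and 33.9 CPM), and Nr1i3 is low in VillinCreERT2 and CDK8iIEC-KO and higher in the other lines.

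After double loss in organoids some PPAR targets were called higher. Called higher were 5 of 20 and lower 1, with a median log2 value of 0.42, beside 11.5% of all genes called higher and 7.95% lower, and none of the 3 PPARs was higher. Cd36 went from 6.98, 7.68 and 9.50 CPM to 59.0, 63.0 and 72.8 CPM (3.01). Angptl4, an inhibitor of lipoprotein lipase, was lower (-0.86). PXR and CAR targets had 0 higher and 2 lower of 16 (median -0.03), near the share of all genes. The cholesterol exporter Abca1 (-1.31) and the LDL receptor ligase Mylip (-1.22), both LXR targets, were lower and Scd1 (1.20) higher. Fkbp5, a glucocorticoid receptor target, was lower (-1.03). In CDK8iIEC-KO organoids the same lists gave Cd36 higher (1.44) and Cyp3a11 (-1.53), Mylip (-2.02), Abca1 (-1.27), Angptl4 (-1.24) and Fkbp5 (-0.78) lower. That comparison shares its controls with the double loss, and C57BL/6 organoids also stood below VillinCreERT2 for Mylip (-2.91), Abca1 (-1.36), Angptl4 (-3.95) and Cyp3a11 (-1.17). Against the mean of both control lines, 8 PPAR targets were called higher and none lower after double loss, and in the double loss and CDK8iIEC-KO alike Angptl4 was called higher and Mylip was not called.

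In Wnt3-CM, which supplies the cultures with a Wnt ligand, 4-OHT against EtOH gave more upward receptor calls than any other knockout or 4-OHT comparison. Called higher were 4 of 10 (background 9.45%) and lower 1 (background 7.42%), and 9 of 10 had no overlap between EtOH and 4-OHT libraries (background 56.3%). Ppara rose from 5.82, 7.48 and 7.94 CPM in EtOH to 15.2, 15.9 and 18.0 CPM in 4-OHT, a fold of 2.31 (log2 fold change 1.21 ± 0.12 (SE), adjusted p = 6.02e-08). Pparg fell from 50.5, 52.0 and 55.6 to 29.2, 30.3 and 31.0 CPM, a fold of 0.572 (-0.81 ± 0.07 (SE), adjusted p = 1.14e-08). These 2 PPARs thus moved in opposite directions in the same libraries, while Ppard had -0.28 (adjusted p = 0.00299) in edgeR's test.

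Nr1i3 went from 5.72, 6.32 and 6.63 CPM in EtOH to 11.4, 11.7 and 11.8 CPM in 4-OHT in this medium (0.90 ± 0.12 (SE), adjusted p = 2.56e-06, Tomm40l 0.25 (adjusted p = 0.0371)). Nr1h3 went from 24.8, 26.9 and 28.1 to 37.7, 40.2 and 45.8 CPM (0.63 ± 0.09 (SE), adjusted p = 2.92e-06) and Nr5a2 from 20.6, 21.3 and 22.2 to 31.0, 31.2 and 34.6 CPM (0.59 ± 0.08 (SE), adjusted p = 4.10e-06). Both stood near the fold limit: Nr1h3 was not called without the first 4-OHT library (0.55), and Nr5a2 not without the third EtOH library (0.57) or the second 4-OHT library (0.55). Vdr (245, 251 and 269 and 315, 356 and 370.4 CPM, 0.44 (adjusted p = 2.57e-05)) was higher without a call, Rxra had -0.27 (adjusted p = 0.0099), and Nr1i2 and Nr3c1 had 0.13 and -0.08 on the log2 scale in edgeR's test.

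The response in Wnt3-CM minus that in standard medium at day 10 was called for 1 of 10 receptors, against 13.3% of genes. This was Ppara, with 0.93 ± 0.19 (SE), adjusted p = 0.00106. Its EtOH libraries were lower in Wnt3-CM (5.82, 7.48 and 7.94 CPM) than in standard medium (12.9, 14.1 and 18.3 CPM), while the 4-OHT libraries were close to each other (15.2, 15.9 and 18.0 and 16.1, 19.3 and 19.4 CPM), on scales set separately for each table. The medium and the table cannot be told apart. Nr5a2 had 0.58 ± 0.10 (SE), adjusted p = 0.000251, just under the fold needed, and was called when any of 7 of the 12 libraries was left out (log2 values from 0.59 to 0.62). Vdr had 0.51 (adjusted p = 0.0295) and was called without the third 4-OHT Wnt3-CM library (0.59), without EtOH day 10 replicate 2 (0.59) or without 4-OHT day 10 replicate 1 (0.66). Nr1i3, which rose in both media, had a difference of 0.03, and Nr1h3 -0.30 (adjusted p = 0.0819) in edgeR's test.

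Many targets rose in Wnt3-CM. PXR and CAR targets had 10 of 15 called higher and none lower (median 0.71), against 9.45% of all genes called higher and 7.42% lower, led by Cyp2b10, a classic CAR target, with 33.1, 36.2 and 51.0 CPM in EtOH and 242, 316 and 364 CPM in 4-OHT (2.94). PPAR targets had 7 of 16 higher and 1 lower (median 0.58). Cd36 went from 0.472, 0.579 and 0.684 to 14.2, 14.3 and 15.2 CPM. Fabp1 (2.12) and Fabp2 (2.13), which are in the enterocyte list as well, rose too. LXR targets had 3 of 8 higher, led by Scd1 (2.97). Glucocorticoid receptor targets had 3 lower and 1 higher of 9. Enterocyte markers had 7 of 12 called higher, but their summed level overlapped (9957 to 10542 CPM in 4-OHT, 10088 to 11909.9 in EtOH). Paneth cell markers summed to 1889.6 to 2322 CPM in 4-OHT and 6848 to 7572 in EtOH, mitochondrial genes held 1.61 to 2.43% and 1.45 to 1.56% of counts, and their part was not tested.

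With kinase-dead CDK19 left in the cells, no receptor was called. In Cdk19 D173A/- organoids 0 of 10 passed both limits in edgeR (background 12.3%) or DESeq2, and 3 passed the adjusted p alone (background 27.8%), 5 the unadjusted p (background 38.9%). Ppara had 23.6, 26.0 and 27.2 CPM in EtOH and 33.1, 34.0 and 39.5 CPM in 4-OHT (0.47 ± 0.09 (SE), adjusted p = 0.00415), Nr1h3 32.6, 32.6 and 36.8 and 42.7, 44.5 and 44.9 CPM (0.37 ± 0.08 (SE), adjusted p = 0.0048), and Nr5a2 48.5, 51.6 and 52.6 and 57.6, 60.9 and 64.1 CPM (0.26 ± 0.07 (SE), adjusted p = 0.0187). All 3 were higher in every 4-OHT library. Set against the day 7 response of the Cdk19-/- time course, the difference was called for none of the 10 by either tool (background 11.1%), and none passed the adjusted p alone (background 20.1%). The log2 differences ran from -0.27 to 0.28, with 4 of 10 under an unadjusted p of 0.05 (background 33.2%). PPAR targets had 7 of 20 higher and none lower in this line (median 0.54), against 6.05% of all genes called higher, among them Angptl4 (3.93) and Cd36 (1.91). PXR and CAR targets had 4 of 16 higher, with Gstm1 (1.59) and Cyp3a11 (1.17). Enterocyte markers summed to 23382 to 26309 CPM in 4-OHT and 17965 to 19592 CPM in EtOH, and Paneth cell markers to 1685 to 2003 and 3309 to 3529.7 CPM, and their part was not tested.

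In IECs, double loss gave no call among the receptors, and the mice varied widely. In CDK8iIEC-KO/Cdk19-/- against VillinCreERT2 IECs 0 of 10 were called by edgeR (background 1.5%) or by DESeq2, and 4 had an unadjusted p below 0.05 (background 19.9%). Vdr read 696, 701 and 734 CPM in VillinCreERT2 and 339, 534 and 584 CPM in CDK8iIEC-KO/Cdk19-/- IECs (-0.55 ± 0.20 (SE), adjusted p = 0.196). Rxra read 234, 244 and 246 and 149.9, 195 and 199 CPM (-0.41 ± 0.13 (SE), adjusted p = 0.154), and Nr3c1 176, 188 and 192 and 104, 138 and 158 CPM (-0.48 ± 0.16 (SE), adjusted p = 0.171). In these 3 genes every knockout mouse was below every control, which held for 6 of 10 receptors by some direction (background 26.8%). Nr1h3 was the one above its controls, with 55.1, 58.5 and 59.2 CPM in VillinCreERT2 and 61.1, 71.6 and 79.0 CPM in CDK8iIEC-KO/Cdk19-/- (0.29 ± 0.11 (SE), adjusted p = 0.219).

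Ppard read 315, 316 and 332 CPM in VillinCreERT2 and 151, 229 and 292 CPM in CDK8iIEC-KO/Cdk19-/- IECs (-0.52 ± 0.22 (SE), adjusted p = 0.258), and Ppara 30.2, 32.0 and 33.2 and 16.5, 22.7 and 30.2 CPM (-0.46 ± 0.21 (SE), adjusted p = 0.275). The knockout mice ranged from well below the controls up to or near their level in both. Epithelial markers summed to 8329 to 9076 CPM in knockout and 9845 to 10176 CPM in control IECs, Paneth cell markers to 931 to 2019 and 3695 to 6049 CPM, and goblet cell markers to 5144 to 7388 and 12261 to 14620.5 CPM, and their part was not tested. The count of receptors called stayed at 0 with any 1 of the 6 mice left out. With no filter on low counts Vdr was called (-0.59, adjusted p = 0.0274).

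Some pathway targets were called in IECs, where 0.856% of all genes were called lower and 0.646% higher. PXR and CAR targets had 4 of 16 called lower and none higher (median -0.75): Cyp3a25 (-1.34), the efflux transporter Abcc2 (-1.07), Cyp3a13 (-1.03) and Cyp2b10 (-0.84). Their receptors Nr1i2 (132, 144 and 147 and 125, 127 and 149 CPM) and Nr1i3 (15.5, 18.6 and 19.7 and 13.3, 15.6 and 15.7 CPM) overlapped between genotypes. Abcg5 (-1.07) and Abcg8 (-0.72) were lower of 11 LXR targets. PPAR targets had 2 of 21 higher, Cd36 (58.4, 73.0 and 73.4 to 171, 213 and 225 CPM) and the fatty acid hydroxylase Cyp4a10 (5.56, 5.92 and 10.4 to 27.8, 37.3 and 59.3 CPM). Fkbp5, lower in double-loss organoids, was higher in IECs (1.29). These calls were not kept in every alternative. Without IEC control replicate 1 or 3 no PXR and CAR, LXR, PPAR or glucocorticoid receptor target was called in IECs. Calls over all genes fell there too, from 228 to 5 and 3. Without knockout replicate 3 only Cyp3a13 was called among these targets, with 31 calls over all genes. Under a replicate block only Cyp4a10 was, with 8 calls over all genes.

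The double-loss effect in organoids minus that in IECs was called for 2 of 10 receptors, against 9.11% of genes. Pparg had -0.70 ± 0.12 (SE), adjusted p = 0.00388, with values of -0.53 in organoids and 0.14 in IECs. Nr1i3 had 0.90 ± 0.15 (SE), adjusted p = 0.00388, with 0.66 in organoids and -0.27 in IECs, where Tomm40l had 0.15 (adjusted p = 0.774). The only organoid control in this difference was the VillinCreERT2 line, whose Nr1i3 level was below that of the C57BL/6 line. No other control line was tried here, so the part of the line was not tested. Vdr had 0.59 (adjusted p = 0.102) by edgeR and was called without CDK8iIEC-KO/Cdk19-/- IEC replicate 2 (0.78) and by DESeq2 (0.61).

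Organoids and IECs of the same VillinCreERT2 genotype differed for most receptors. Called lower in organoids were 6 of 10 (background 28.1%) and higher 1 (background 22.8%). Ppard had 106, 109 and 122 CPM in organoids and 315, 316 and 332 CPM in IECs, a fold of 0.270 (log2 fold change -1.89 ± 0.18 (SE), adjusted p = 2.82e-06). Nr1i2 had 69.9, 72.4 and 74.9 and 132, 144 and 147 CPM (-1.34 ± 0.08 (SE), adjusted p = 4.19e-08). These were the receptors farthest below the tissue level, followed by Vdr (-0.94), Rxra (-0.92), Nr1h3 (-0.83) and Nr1i3 (-0.83, Tomm40l -0.54 (adjusted p = 0.0186)). Pparg was higher in organoids, with 43.6, 44.2 and 47.4 against 21.2, 21.9 and 23.3 CPM (0.65 ± 0.08 (SE), adjusted p = 2.19e-05). Nr5a2 (0.44 (adjusted p = 0.0133)), Nr3c1 (0.26 (adjusted p = 0.0808)) and Ppara (-0.06 (adjusted p = 0.774)) were not called. CPM values quoted for a library are scaled within its own table, while the log2 fold changes come from edgeR on both tables scaled together, so the pairs of values and the folds differ somewhat.

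Organoids and IECs were in separate tables, so culture, tissue and table cannot be told apart, and the immune transcripts of the IECs stand beside these values. The choice of organoid line mattered for 6 receptors. With C57BL/6 organoids Nr1i3 had 0.06 instead (Tomm40l -0.20 (adjusted p = 0.378)), Pparg 0.47 without a call, and Ppara was called lower (-0.85). With EtOH organoids of day 7 Nr3c1 was called lower (-0.63), Ppara too (-0.59), and Pparg (0.20), Nr1i3 (-0.44, Tomm40l -0.04 (adjusted p = 0.866)) and Nr1h3 (-0.41) were not called. Nr5a2, positive with VillinCreERT2, had -0.08 (adjusted p = 0.646) with C57BL/6 and -0.20 (adjusted p = 0.274) with EtOH organoids in edgeR. Ppard, Nr1i2, Vdr and Rxra were called lower with each of these lines. Of the targets, PPAR targets had 14 of 21 lower and 1 higher (median -0.87), against 28.1% of all genes called lower and 22.8% higher, with Vnn1, a pantetheinase, at 2.71, 3.05 and 3.69 CPM in organoids and 186, 196 and 198 CPM in IECs. LXR targets had 7 lower and 3 higher of 11, Scd1 being the largest rise (7.45). Enterocyte markers had 10 of 12 lower in organoids, summing to 15467 to 18503 CPM against 44390.4 to 47480.3 CPM.

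**Figure D4:**
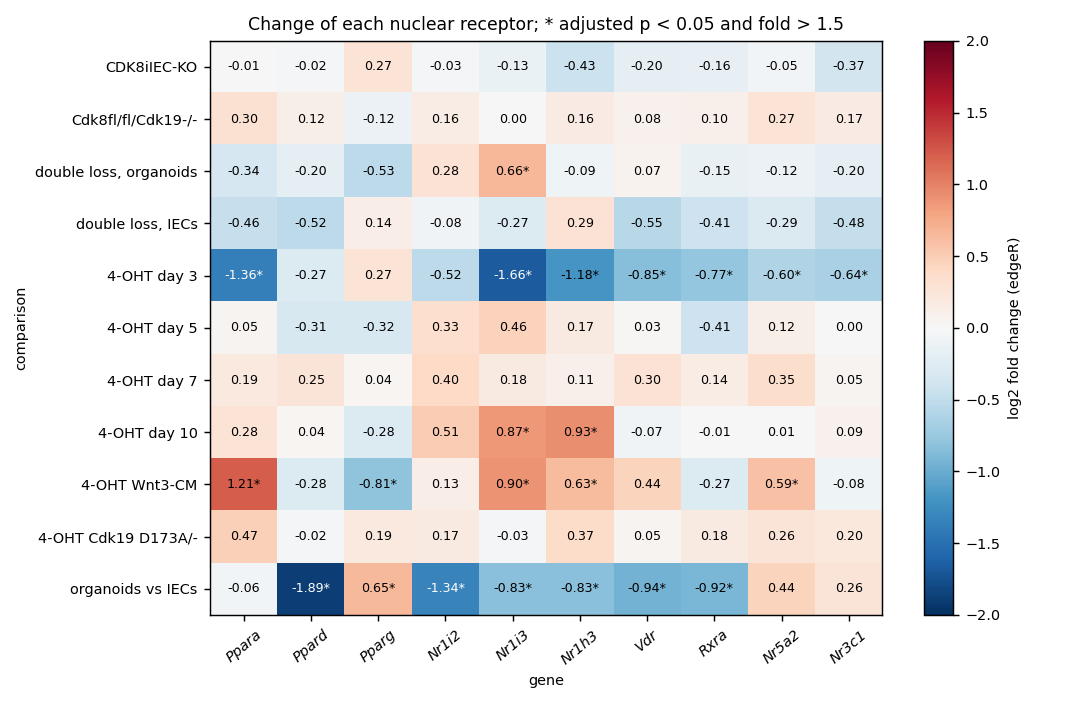
Log2 fold change of each receptor (columns) in 11 comparisons (rows), from edgeR, with colour from blue (-2 and below) to red (2 and above) and an asterisk where adjusted p was below 0.05 and the fold above 1.5. The day 3 row holds 7 asterisks, all on negative values, and the row of organoids against IECs holds 6 on negative values and 1 on Pparg.

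Calls were counted for each receptor over the 10 comparisons of a knockout or 4-OHT group with its control (the heat map's rows other than organoids against IECs), leaving out the comparisons of double with single loss, where Pparg was also called lower and Nr1i3 higher. In these 10, Nr1i3 was called most often (3 higher, 1 lower), with log2 fold changes from -1.66 to 0.90, followed by Nr1h3 (2 higher, 1 lower). With both control lines averaged, Nr1i3 was not called after double loss in organoids (0.20) and was called lower in CDK8iIEC-KO (-0.59). Its counts are also uncertain because of the overlap with Tomm40l. Ppara and Nr5a2 were called once in each direction. Pparg was called lower once, in Wnt3-CM, and Vdr, Rxra and Nr3c1 once each, at day 3. Ppard, with -0.52 in IECs as its largest value, and Nr1i2, with -0.52 to 0.51 along the time course, were never called. At day 7 after double loss in organoids the median of PPAR targets was 0.42 and that of the 10 receptors -0.14, or 0.55 and 0.08 with both control lines averaged, whereas at day 3 both were negative (-0.35 and -0.71).

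**Figure D5:**
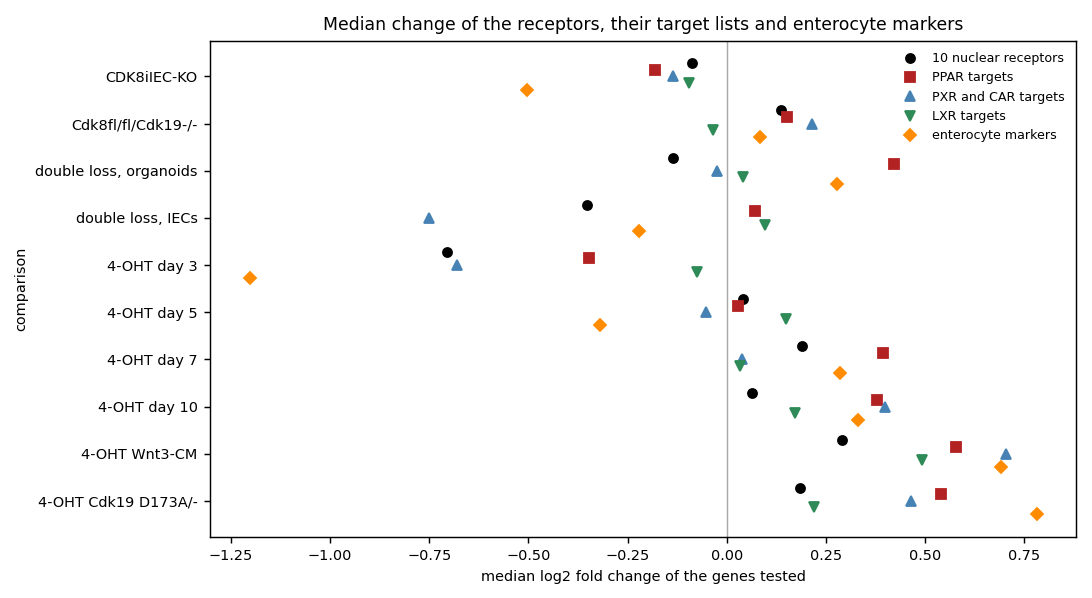
Median log2 fold change of the 10 receptors, of their PPAR, PXR and CAR, and LXR target lists and of enterocyte markers (symbols) in each knockout or 4-OHT comparison (rows). All but the LXR list lie clearly below 0 at day 3 (receptors -0.71, PXR and CAR targets -0.68, enterocyte markers -1.20), and PPAR targets lie above 0 at days 7 (0.39) and 10 (0.38).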

How the data were processed

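Whole-number counts per gene were deposited by the authors in 4 tables. Per the labels and the submitters' processing notes, 100-base paired-end reads of poly-A RNA were aligned to mm10 with STAR 2.5.2 and counted with featureCounts (Subread 1.6.3). Whether counting used strand is not given in the sources used here. From the deposited counts, log2 fold changes were fitted with edgeR 4.0.16 in R 4.3.3 (TMM scaling, filterByExpr, robust quasi-likelihood F test, Benjamini-Hochberg adjustment over all genes tested), with all groups of a table in 1 fit, or 4 groups over 2 tables for differences between tables. A gene was called at an adjusted p below 0.05 and a fold above 1.5. Standard errors are the absolute log2 fold change divided by the square root of F. CPM used TMM-scaled totals of each table. The scripts were tested on simulated data with planted changes. Of log2 changes of size 0.7, 25% were called in the IEC comparison, 85% for double loss in organoids and for day 3, and 91% in Wnt3-CM. Among the calls in simulated IECs 11.1% were false, against at most 1.6% in the others. Exon lengths and positions came from GENCODE annotation of GRCm38.

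Columns of the Wnt3-CM and Cdk19 D173A/- groups could not be tied to the replicate numbers of the labels, and the D173A columns were assigned from names that fitted no other group. 6 library columns of kinase-dead IECs that could not be tied to single groups were not used. All 10 receptors were named in every comparison. Of each target list at most 4 genes were named, those with the largest called change and a mean of at least 50 counts in the higher group, and for each receptor the 2 genes above 5 CPM most like it over the time course; some named by this rule are not reported here. The receptors and lists were chosen with earlier results of these data known. Libraries of a group differed by more than sampling noise (lowest chi-square per degree of freedom 2.63). The alternatives were RLE factors, no filter, DESeq2 1.42.0, a replicate block, only the groups compared, the mean of both control lines, and leaving out each library. Organoids of 2 other lines against IECs, a replicate block for organoids against IECs, the mean of both control lines for the sum of single losses, and a block on column numbers for Wnt3-CM and D173A, were added after seeing the data. Samples with the same replicate number did not deviate together (lowest correlation -0.0744 in day 7 organoids, -0.137 in the time course, -0.410 in IECs).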

Additional observations from a re-analysis of the deposited data

Results flagged for a closer look

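The response to 4-OHT differed between day 10 and day 3 for 8 receptors by a direct test of the difference in edgeR, on the log2 scale by 2.53 for Nr1i3 (0.35 for Tomm40l, which overlaps it), 2.11 for Nr1h3, 1.64 for Ppara, 1.03 for Nr1i2, 0.78 for Vdr, 0.76 for Rxra, 0.74 for Nr3c1 and 0.61 for Nr5a2. The response in Wnt3-CM was larger than that in standard medium at day 10 for Ppara, by 0.93. The effect of double loss differed between organoids and IECs for Pparg, by -0.70, and for Nr1i3, by 0.90 (0.15 for Tomm40l). Groups of 3 are too small to test a single library against its mates.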

How the results depend on the processing

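Of 2490 receptor values recomputed under the alternatives, 2447 stayed called or stayed uncalled, 75 of them uncalled values with the other sign, and of 560 called values 540 were kept. Values that stayed uncalled could still cross the limit of the adjusted p alone. Ppara after double loss in organoids did so with both control lines averaged (adjusted p = 0.68 in edgeR). Against the mean of both control lines, 1 receptor was called in CDK8iIEC-KO organoids (Nr1i3, lower), 0 after double loss, and, added after seeing the data, 1 for its difference from the sum of single losses (Pparg, lower). With only the groups compared in the fit, Nr5a2 was not called at day 3 (-0.57). By DESeq2, 3 were called for the double-loss effect in organoids minus that in IECs, Vdr among them. Without a filter on low counts, 1 was called in IECs (Vdr) and 2 for the Wnt3-CM difference (Ppara and Nr5a2). With 1 library left out, the number called ran from 1 to 2 for double loss in organoids, 2 to 3 for its difference from the sum of single losses, 6 to 7 at day 3, 7 to 9 for day 10 minus day 3, 3 to 4 for EtOH over time, 4 to 5 in Wnt3-CM, 1 to 3 for the Wnt3-CM difference and 2 to 3 for organoids minus IECs, and did not move elsewhere. Among values called in either fit, a pair turned round, both with other organoid lines against IECs, chosen after seeing the data: Nr1i3 was 0.064 with C57BL/6 organoids and Nr3c1 -0.63 with EtOH organoids of day 7. The cause was not tested.

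Over all genes, the IEC comparison had 228 calls, against 1103 without a filter and 859 with DESeq2. Leaving out VillinCreERT2 replicate 2, which had the highest mesenchymal sum of its group, gave 1566, leaving out CDK8iIEC-KO/Cdk19-/- replicate 2 gave 572, and leaving out any 1 of the other 4 gave 3 to 42. A replicate block, where replicate numbers were shared and, for organoids against IECs, added after seeing the data, left 8 calls over all genes in IECs and changed the number of receptors called in no comparison: 0 in IECs, 1 for double loss in organoids, 7 at day 3, 2 at day 10, 7 for organoids against IECs and 2 for the difference of double loss between them. Columns of the Wnt3-CM and D173A groups carry numbers of their own, which could not be tied to the labels. Same-numbered columns had correlations of deviations of at least 0.0951 in Wnt3-CM and 0.0950 in D173A, not all above 0.1, and a replicate block on these numbers, added after seeing the data, left the receptors called at 5 in Wnt3-CM, 0 in D173A, 1 for the Wnt3-CM difference and 0 for the D173A difference, and calls over all genes within 1.22 times. The depth of at least 15485959 counts left Nr1i3 at 5.61 to 31.8 CPM. It had the lowest mean of the receptors in every group but C57BL/6, EtOH day 3 and D173A EtOH, where Ppara was lowest.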

Other observations

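Of 24 other nuclear receptors tested, 5 were called higher and 0 lower at day 7 (18.3% of all genes called) and 3 and 3 at day 10 (15.8%). In Wnt3-CM 3 rose and 3 fell of 23 (9.45% and 7.42% of all genes), and in Cdk19 D173A/- organoids 2 rose and 3 fell of 26 (12.3% called in all). Nr1h4, the bile acid receptor FXR and a partner of Rxra, was higher in 4-OHT at day 7 (log2 fold change 0.93) and day 10 (0.74). In Wnt3-CM the clock receptor Nr1d1 (-1.33) and the immediate-early receptor Nr4a1 (-1.54) fell and Thrb, a thyroid hormone receptor, rose (0.72). Rarg, a retinoic acid receptor, rose in the Cdk19-/- time course at day 7 (0.79) and fell in the Cdk19 D173A/- line (-1.68). All values passed both limits of edgeR's test.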
